A study of Rattus norvegicus with 30 samples.

Results

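The 8 genes of the MHC class II pathway described here were the rat genes RT1-Da, RT1-Db1, RT1-Ba, RT1-Bb, RT1-DMa, RT1-DMb, Cd74 and Ciita. They were chosen by name from the 32545 genes of the deposited table, and each name had a single row. RNA was sequenced from the right kidney cortex (Cx) and right kidney outer medulla (OM) of male Sprague-Dawley rats, an outbred strain. The low-salt group (LS) was kept on 0.4% NaCl. The high-salt groups were switched from it to 4.0% NaCl and sampled 14 d (HS14) or 21 d (HS21) later, with 5 libraries per tissue and diet and 30 libraries in all. No gene was altered, and the diet and its duration were the only treatment named as differing between the groups. The paper names effects of anesthesia and surgery as a limit of its tissue samples. It gives an age for its instrumented rats and none for the sequenced rats by themselves. Samples carried the numbers 1 to 5 (LS), 6 to 10 (HS14) and 11 to 15 (HS21) in both tissues. The labels do not say that an equal number means the same rat. By the paper's methods, collected kidneys were divided into these regions, so Cx and OM libraries of a diet can be expected to share rats. The main fits between the tissues and of interactions treated the libraries as independent. A fit with equal numbers as a block is given as an alternative. No label separated rats from technical repeats, and the libraries of a group are taken as different rats from the paper's 5 kidneys per group. *P* values measure the spread between these samples.

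MHC class II molecules are cell surface heterodimers of an alpha and a beta chain that show peptides from the endosome to CD4+ T cells. In the rat the classical pairs are RT1-D (the alpha chain RT1-Da and the beta chain RT1-Db1) and RT1-B (RT1-Ba and RT1-Bb), and several of these genes are highly polymorphic between individuals. The invariant chain Cd74 escorts new class II dimers to the endosome, and RT1-DM (RT1-DMa and RT1-DMb) exchanges the remnant of Cd74 for peptide there. Ciita is the coactivator that class II promoters need. In the kidney, class II is best known from dendritic cells and macrophages, and tubular epithelium can be induced to make it.

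In the deposited annotation, which uses the build Rnor_6.0, 6 of the 8 genes lay on chromosome 20 within the MHC. RT1-Bb stood at chr20:4039413-4049711 on the plus strand and RT1-Ba at chr20:4066132-4070721 on the minus strand. RT1-Db1 followed at chr20:4087618-4097190 on the plus strand and RT1-Da at chr20:4127644-4132616 on the minus strand. RT1-DMb was placed at chr20:5227045-5234290 and RT1-DMa at chr20:5240975-5244386, both on the minus strand. Cd74 lay at chr18:56071478-56080849 on the plus strand and Ciita at chr10:5213350-5260608 on the minus strand. Values are counts over whole genes, so exons were not told apart.

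Class II promoters are known for an X box, bound by the RFX complex, followed by a Y box, bound by NF-Y. They are shown because this shared element is what links the members to Ciita. RefSeq promoter windows of the rat build GRCr8, from 250 bases before to 50 bases after the start of a gene, were matched for 6 of the 8 members, and not for RT1-DMb and Ciita. The stretches below run 5′ to 3′ on the strand of the gene, and capitals mark the X box letters and then the Y box letters.
RT1-Da: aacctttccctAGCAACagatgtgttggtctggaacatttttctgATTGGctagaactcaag
RT1-Db1: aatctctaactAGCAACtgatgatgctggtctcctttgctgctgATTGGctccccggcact
RT1-Ba: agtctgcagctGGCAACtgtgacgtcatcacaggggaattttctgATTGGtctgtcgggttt
RT1-Bb: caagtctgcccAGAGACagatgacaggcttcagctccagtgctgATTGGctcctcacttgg
RT1-DMa: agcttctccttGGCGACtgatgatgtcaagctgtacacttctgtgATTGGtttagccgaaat
Cd74: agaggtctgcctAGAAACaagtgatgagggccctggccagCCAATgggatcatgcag
On GRCr8 these are chr20:4515321-4515382 (plus strand) for RT1-Da, chr20:4560226-4560286 (minus) for RT1-Db1, chr20:4576969-4577030 (plus) for RT1-Ba, chr20:4604163-4604223 (minus) for RT1-Bb, chr20:4712383-4712444 (minus) for RT1-DMa and chr18:56526977-56527033 (plus) for Cd74.

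The searches covered both strands. The letters AGNAAC were in 4 of these 6 promoters and in 48.6% of all 33469 promoters of the table, and ATTGG was in 6 of 6 against 37.5%. AGNAAC followed by ATTGG on the same strand, with 25 to 40 bases between their first letters, was found in 2 of the 6 (RT1-Da and RT1-Db1) and in 0.905% of all promoters. All 4 class II relatives examined, RT1-DOa, RT1-DOb, RT1-Db2 and RT1-Ha, also held it. A looser X box, GNNAC, which includes every match of AGNAAC, was followed by ATTGG at that distance in 5 of the 6 and in 8.76% of all promoters. Its letters and the longer Y box TGATTGG, which contains ATTGG and was in 5 of the 6 and 7.06% of all, were chosen after the sequences had been seen. In Cd74 the Y box stood on the opposite strand. These are matches of letters and not measured binding.

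Counts on genes came to between 5408126 (OM HS14, number 10) and 21842843 per library, and all but OM HS14 number 10 had at least 12748841. In the authors' mapping summary, OM HS14 number 10 also had the lowest share of bases in exons and the highest in introns. Levels are given as CPM, the counts of a gene scaled to the effective size of its library. Umod, made in the thick ascending limb, matched the labels, with 5708 to 13523 CPM in the OM against 861 to 2208 in the Cx. Slc34a1, the proximal tubule phosphate transporter, ran from 4171 to 6855 CPM in the Cx. OM LS number 2 stood apart with 4386 CPM of Slc34a1, inside this Cx range, where the median of OM LS was 1068. It was also the lowest OM LS library for 5 of the 8 members. The counts of members and of all genes called by edgeR were also made without each library in turn. Counts of the other gene lists, of values without overlap and of unadjusted *P* were not.

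Scaled for gene length, Cd74 had the highest level of the 8 genes in every group. In Cx LS its mean was 607 CPM per kb (n = 5), ahead of RT1-Da at 64.0, RT1-Ba at 31.1, RT1-Bb at 26.2 and RT1-Db1 at 8.26. Ciita averaged 2.63 CPM per kb, RT1-DMb 1.40 and RT1-DMa 1.13. RT1-Ba and RT1-Bb did not differ beyond their spread in this order, nor did RT1-DMa, RT1-DMb and Ciita, since RT1-DMa alone ran from 0.153 to 6.17 CPM within the group. In Cx HS21, RT1-Da reached 188 CPM per kb and RT1-Db1 41.0, so that RT1-Db1 then averaged above RT1-Bb (31.4) and RT1-Ba (27.2), whose ranges overlapped with it.

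**Figure D1:**
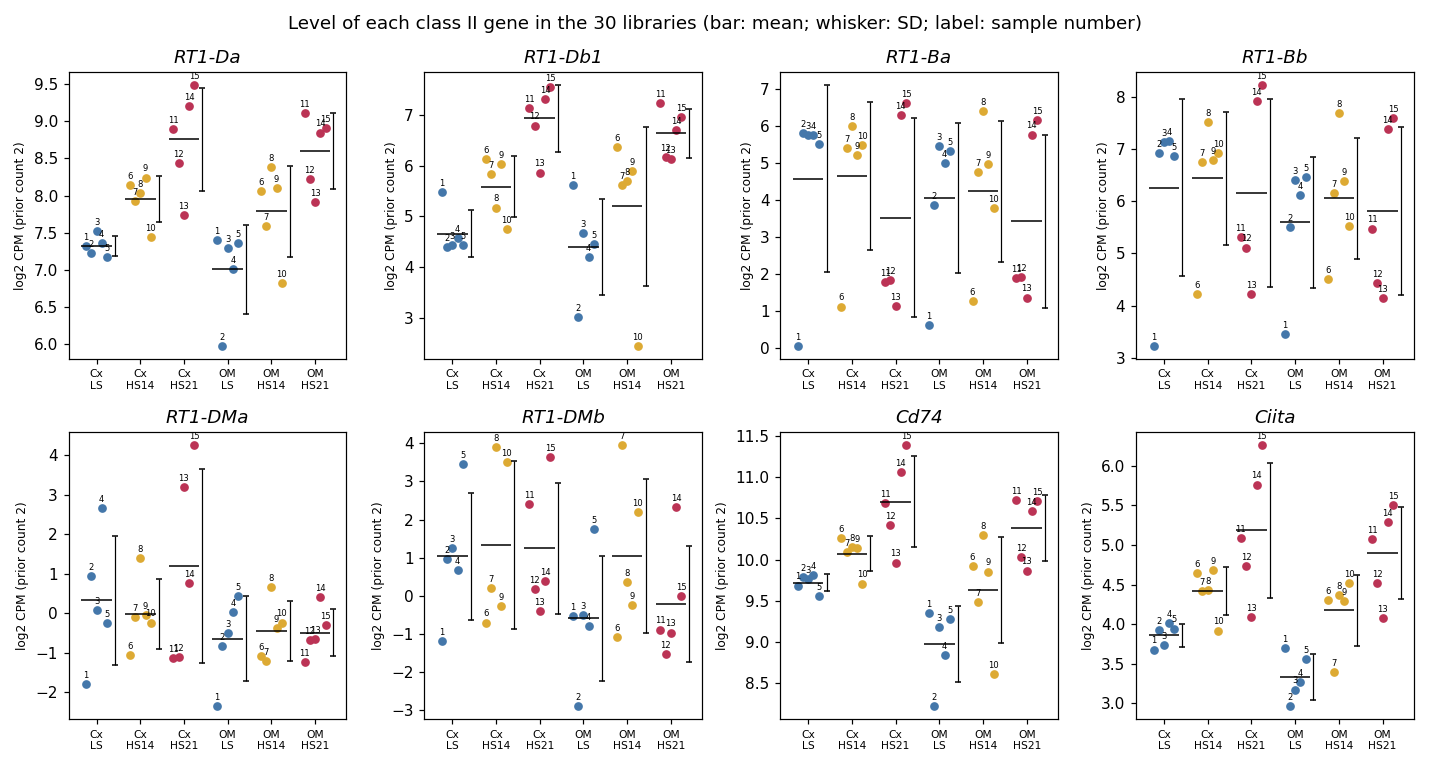
Level of the 8 class II genes in the 30 libraries, as log2 CPM with a prior count of 2. The horizontal axis gives tissue and diet, each point is 1 library with its sample number, bars are means and whiskers SD (n = 5). RT1-Da, Cd74 and Ciita form single clouds that lie higher at HS21, RT1-Ba and RT1-Bb fall into a low and a high cloud within each group, and RT1-DMa and RT1-DMb scatter widely.

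RT1-Da, the alpha chain of RT1-D, was called higher than LS in the Cx at both times on high salt. Only the call at HS21 stood whichever library was left out, and that at HS14 was lost in 7 of 10 such fits. On LS, numbers 1 to 5 had 159, 149, 184, 165 and 144 CPM there. At HS14, numbers 6 to 10 had 282, 242, 261, 303 and 174 CPM, so only number 10 lay within the LS range. At HS21, numbers 11 to 15 had 476, 347, 214, 591 and 719 CPM, all above the highest LS library. The log2 ratio to LS was 0.65 ± 0.12 (SE, as for every log2 ratio below unless SD is named; edgeR quasi-likelihood test, Benjamini-Hochberg adjusted *P* = 0.0235) at HS14 and 1.55 ± 0.26 (adjusted *P* = 0.000800) at HS21.

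In the OM, RT1-Da had 169, 62.9, 157, 128 and 164 CPM on LS, the 62.9 being number 2. At HS21 it had 552, 297, 240, 461 and 482 CPM, above every LS library. The log2 ratio was 1.58 ± 0.31, and its adjusted *P* of 0.0521 did not pass the threshold of 0.05. It did pass without OM LS number 2 (log2 ratio 1.40) or without OM HS21 number 13 (1.73).

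RT1-Db1, the partner chain of RT1-Da, had the largest log2 ratio of the 8 genes in the Cx at HS21. On LS, numbers 1 to 5 had 44.2, 20.9, 21.6, 23.6 and 21.6 CPM. At HS14, numbers 6 to 10 had 69.8, 57.2, 36.0, 65.2 and 26.9 CPM. At HS21, numbers 11 to 15 had 140, 110, 58.1, 159 and 188 CPM. Number 1 was thus about as high as the lower HS14 libraries although it was an LS sample, and the HS21 libraries all lay above it. The log2 ratio to LS was 0.94 ± 0.28 (adjusted *P* = 0.101) at HS14 and 2.31 ± 0.31 (adjusted *P* = 0.000209) at HS21.

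The OM repeated the high place of number 1: RT1-Db1 had 49.1, 7.95, 25.4, 18.4 and 21.9 CPM in OM LS. At HS21 the 5 OM libraries had 149, 71.6, 69.7, 104 and 124 CPM, with no overlap. The log2 ratio of 2.08 ± 0.43 missed the threshold (adjusted *P* = 0.0631). At HS14 the shallow library number 10 had 5.36 CPM, from 30 counts, and the other 4 had 48.8 to 81.9 CPM.

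The balance of the RT1-D chains differed by sample number and was similar in both tissues. The CPM of RT1-Da divided by that of RT1-Db1 was 3.59 in Cx and 3.44 in OM for number 1, where numbers 2 to 5 had 6.66 to 8.53 in the Cx and 6.17 to 7.91 in the OM. Among the HS14 samples, numbers 6, 7 and 9 had 4.04, 4.24 and 4.65 in the Cx and 3.25, 3.94 and 4.64 in the OM. Numbers 8 and 10 had 7.26 and 6.48 in the Cx and 6.48 and 21.0 in the OM. All 5 HS21 samples lay low, from 3.15 to 3.83 in the Cx and from 3.45 to 4.42 in the OM. The mean log2 ratio of RT1-Da to RT1-Db1 fell by 0.83 from LS to HS21 in the Cx (exact permutation test, two-sided, *P* = 0.0317, adjusted over 28 ratio tests 0.127), which did not pass. Number 1, an LS sample, had the ratio of the HS21 samples, so the larger RT1-Db1 fold and the difference in this ratio between numbers cannot be told apart.

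RT1-Ba, the alpha chain of RT1-B, gave the widest spread of the classical chains, and it was low in the same sample numbers of both tissues. In the Cx, numbers 1 to 5 on LS had 0.917, 56.6, 54.2, 54.4 and 45.5 CPM. Numbers 6 to 10 at HS14 had 2.06, 42.5, 64.4, 37.1 and 44.8 CPM. Numbers 11 to 15 at HS21 had 3.30, 3.45, 2.07, 78.1 and 97.8 CPM. Numbers 1, 6, 11, 12 and 13 therefore lay at or under 3.45 CPM and the other 10 at or above 37.1 CPM, with nothing between.

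In the OM the same 5 numbers were low. RT1-Ba had 1.41, 14.4, 44.1, 31.8 and 40.1 CPM in OM LS, 2.30, 26.9, 85.2, 31.2 and 13.8 CPM in OM HS14, and 3.60, 3.64, 2.46, 54.6 and 72.3 CPM in OM HS21. The 5 low libraries ended at 3.64 CPM and the other 10 began at 13.8 CPM. Each of LS and HS14 held 1 low number of 5, and HS21 held 3 of 5.

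RT1-Bb, the beta chain of the same molecule, followed RT1-Ba. In the Cx, numbers 1, 6, 11, 12 and 13 had 9.25, 18.6, 39.7, 34.5 and 18.6 CPM, and the other 10 numbers ran from 108 to 300 CPM. In the OM the same numbers had 10.9, 22.7, 44.4, 21.6 and 17.6 CPM, and the others ran from 45.3 to 206 CPM, so that number 11 came close to number 2 (45.3). RT1-Bb fell less than RT1-Ba in the low samples: the CPM of RT1-Ba was 0.0832 to 0.112 of that of RT1-Bb in the 5 low Cx libraries and 0.321 to 0.466 in the other 10.

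**Figure D2:**
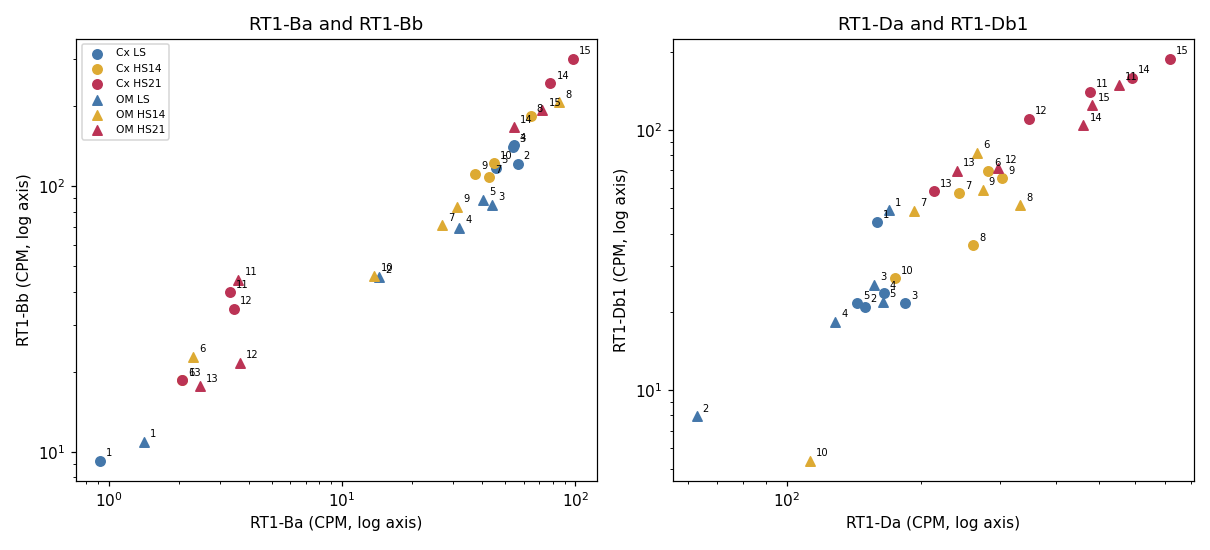
CPM of the alpha chain (horizontal) against the beta chain (vertical) of RT1-B (left) and RT1-D (right) on log axes, for 30 libraries marked with their sample number, circles for Cx and triangles for OM, colours for diet. At the left, numbers 1, 6, 11, 12 and 13 of both tissues form the lower cloud, at or under 3.64 CPM of RT1-Ba. At the right the same samples all have a low ratio of RT1-Da to RT1-Db1, from 3.15 to 4.15. The other LS samples have 6.17 to 8.53. The low ratio is not confined to these numbers, since some other HS14 samples and the other HS21 samples also lie low.

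Over the 30 libraries the log2 CPM of RT1-Ba and RT1-Bb had a Pearson r of 0.97, and RT1-Ba and RT1-Da one of 0.06. RT1-Da went with RT1-Db1 (r = 0.92), Cd74 (0.96) and Ciita (0.89). These values describe libraries that share tissues, diets and, by number, perhaps rats. The samples low in RT1-Ba and RT1-Bb were not all low in the other genes, as number 11 had 1645 CPM of Cd74 and 476 CPM of RT1-Da in the Cx.

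The fits of RT1-Ba and RT1-Bb between diets carried this split as error. In the Cx at HS21 the log2 ratio to LS was -0.20 ± 1.03 for RT1-Ba (adjusted *P* = 0.899) and 0.26 ± 0.79 for RT1-Bb (adjusted *P* = 0.820). In the OM they were 0.05 ± 1.05 (adjusted *P* = 0.995) and 0.56 ± 0.74 (adjusted *P* = 0.879). With SEs of this size, a change of the order seen for RT1-Da was not detectable. Side by side, numbers 14 and 15 at HS21 (78.1 and 97.8 CPM of RT1-Ba in the Cx) lay above numbers 2 to 5 on LS (45.5 to 56.6), and numbers 11 to 13 (2.07 to 3.45) lay above number 1 (0.917). No test was made on that division, since it was read from the values themselves. All reads were aligned to 1 reference genome, class II genes are polymorphic and have near-identical relatives, and less RNA and fewer aligned reads cannot be told apart from these counts.

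**Figure D3:**
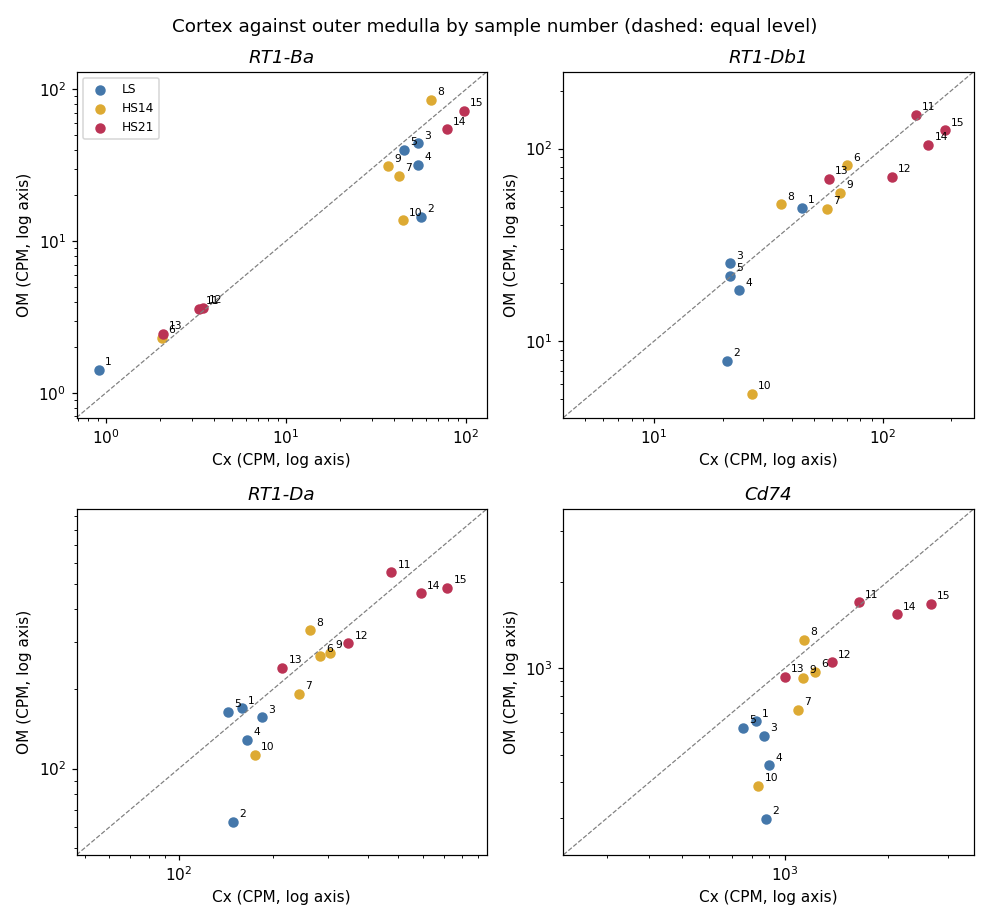
CPM in the Cx (horizontal) against the OM (vertical) for 4 genes on log axes, 1 point per sample number, coloured by diet, with a dashed line at equal level. RT1-Ba splits into numbers 1, 6, 11, 12 and 13 and the other 10 along both axes, number 1 leads the LS samples for RT1-Db1, and all 5 LS points of Cd74 lie below the line.

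RT1-DMa and RT1-DMb, the chains of the peptide exchange factor, had few counts. RT1-DMa ran from 0.0615 CPM (1 count) to 19.0 CPM (280 counts), and RT1-DMb from 0 to 15.3 CPM. In Cx HS21, RT1-DMa had 0.318, 0.332, 9.12, 1.57 and 19.0 CPM for numbers 11 to 15, while OM HS21 had 0.290, 0.490, 0.504, 1.20 and 0.682. Numbers 13 and 15 were thus high in the Cx and not in the OM. RT1-DMb stood at 14.7 CPM in Cx number 8 and at 1.15 in OM number 8, but at 1.02 in Cx number 7 and 15.3 in OM number 7. These high values did not recur in the other tissue of the same number. For RT1-DMb, number 5 was the highest of the LS samples in both tissues (10.9 CPM in the Cx and 3.25 in the OM). Number 10 was the second highest of the HS14 samples in both (11.3 and 4.47 CPM). For RT1-DMa, number 8 was the highest of the HS14 samples in both (2.49 and 1.46 CPM).

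The low-count filter kept RT1-DMa out of both OM comparisons with LS, and RT1-DMb out of the OM comparison of HS21 with LS. Where they were tested, neither passed between diets. The log2 ratio in the Cx at HS21 was 1.63 ± 1.08 for RT1-DMa (adjusted *P* = 0.254) and 0.26 ± 0.91 for RT1-DMb (adjusted *P* = 0.848).

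Cd74, the invariant chain, was called higher in both tissues at HS21. The call in the OM was lost in 7 of 10 fits that left out a library. In the Cx, numbers 1 to 5 on LS had 823, 882, 867, 899 and 755 CPM. Numbers 11 to 15 at HS21 had 1645, 1373, 998, 2134 and 2679.8 CPM, with no overlap and a log2 ratio of 1.06 ± 0.21 (adjusted *P* = 0.00233). The HS14 libraries had 1226, 1091, 1137, 1129 and 836 CPM. All but number 10 lay above LS, and the log2 ratio of 0.35 ± 0.09 did not pass (adjusted *P* = 0.0663).

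In the OM, Cd74 had 653, 299, 580, 458 and 619 CPM on LS. At HS21 it had 1691, 1047, 933, 1536 and 1673.5 CPM, again above every LS library, with a log2 ratio of 1.40 ± 0.25 (adjusted *P* = 0.0392). At HS14 the values ran from 389 (number 10) to 1254 CPM (number 8), and the log2 ratio was 0.71 ± 0.31 (adjusted *P* = 0.853).

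Ciita, the class II coactivator, was called higher in the Cx at both times and in the OM at HS21. The call in the Cx at HS14 was lost in 9 of 10 fits that left out a library, and that in the OM in 6 of 10. In the Cx, LS libraries had 12.7, 15.1, 13.3, 16.1 and 15.3 CPM, from 166 to 238 counts. At HS14 they had 24.9, 21.2, 21.5, 25.6 and 15 CPM, and number 10 again lay within the LS range (log2 ratio 0.57 ± 0.13, adjusted *P* = 0.0463). At HS21 they had 33.9, 26.4, 16.9, 54.2 and 76.6 CPM, all above LS (log2 ratio 1.52 ± 0.34, adjusted *P* = 0.00404).

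In the OM, Ciita had 12.9, 7.69, 8.91, 9.53 and 11.6 CPM on LS. At HS21 it had 33.6, 22.9, 16.8, 39.2 and 45.4 CPM, with a log2 ratio of 1.64 ± 0.27 (adjusted *P* = 0.0298) and no overlap. At HS14 number 7 had 10.4 CPM, within the LS range, and the others had 19.4 to 22.9 CPM (log2 ratio 0.88 ± 0.23, adjusted *P* = 0.448).

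**Figure D4:**
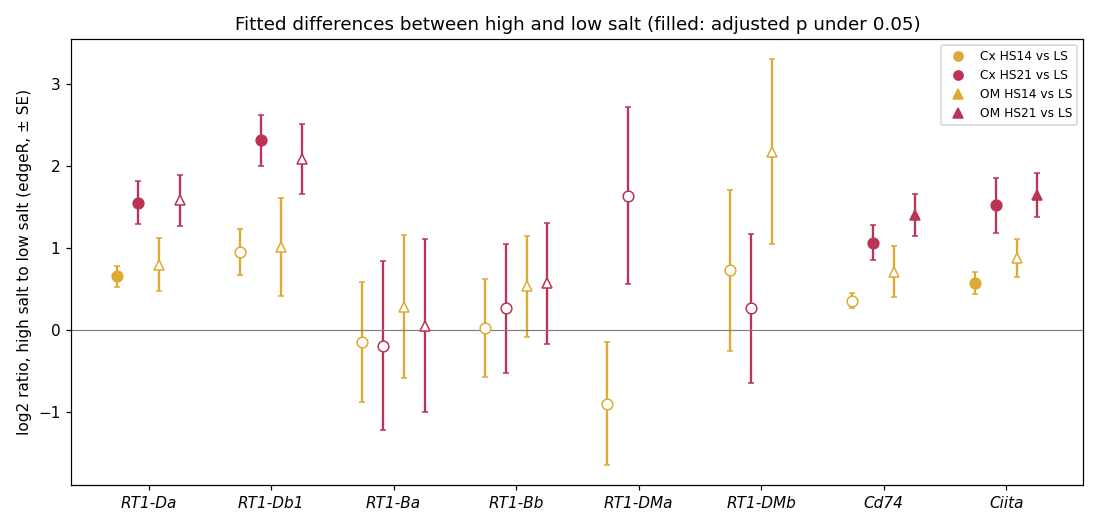
Fitted log2 ratio of high salt to low salt (vertical axis, edgeR, ± SE) for each member in the Cx (circles) and the OM (triangles) at HS14 and HS21, filled where the adjusted *P* was under 0.05. RT1-Da, RT1-Db1, Cd74 and Ciita lie above 0 in all 4 comparisons, and the error bars of RT1-Ba and RT1-Bb span 0 at HS21; RT1-DMa was not tested in the OM, nor RT1-DMb in the OM at HS21.

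Counted over the members, 2 of 8 (RT1-Da and Ciita) were called higher in the Cx at HS14, where 1.14% of the 14181 genes tested were. At HS21 it was 4 of 8 (RT1-Da, RT1-Db1, Cd74 and Ciita) against 18.9% of 14299 genes, and the same 4 did not overlap with LS, as did 12% of all genes in that direction. Total-count scaling moved the split over all genes from 2702 higher and 2936 lower to 4401 and 1653, and still called these 4 members. The median log2 ratio of the 8 was 1.29 beside 0.00 over all genes. Between HS14 and HS21 in the Cx, RT1-Da (0.90 ± 0.28, adjusted *P* = 0.0464) and RT1-Db1 (1.37 ± 0.32, adjusted *P* = 0.0181) were called higher, 2 of 8 against 6.5% of all genes, and Cd74 (0.71 ± 0.22) had an adjusted *P* of 0.0524.

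The 4 calls at HS21 in the Cx stood whichever library was left out. Those at HS14 did not, and the 162 genes called higher there over all genes ran from 42 (without LS number 4) to 274 (without HS14 number 10). RT1-Da lost its call in 7 of 10 such fits (without LS number 1, 2, 4 or 5 or HS14 number 6, 8 or 9, with log2 ratios of 0.58 to 0.75 over all 10), and Ciita in all but the one without HS14 number 10 (9 of 10, 0.50 to 0.67). RT1-Db1 gained a call at HS14 without LS number 1 or HS14 number 10. Between HS14 and HS21 the 935 genes called higher ran from 337 (without HS14 number 8) to 1476 (without HS14 number 10). Of the calls there, RT1-Da stood only without HS21 number 12 or 13 (0.69 to 1.08 over all 10), and RT1-Db1 fell below the threshold without HS14 number 8 (1.20 to 1.55). Both calls at HS14 were also lost when all 15 Cx libraries were fitted together (adjusted *P* = 0.199 and 0.391).

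In the OM, edgeR called 0 of the 7 members tested at HS14, where 0.00694% of all genes, a single one, were called higher. At an unadjusted *P* under 0.05 there were 3 (RT1-Da, Cd74 and Ciita), and DESeq2 and limma called 0. At HS21, 2 of 6 tested members (Cd74 and Ciita) were higher against 0.639% of 14555 genes, and 4 did not overlap with LS against 2.44% of all genes. The 93 genes behind the 0.639% ran from 9 (without LS number 3) to 159 (without HS21 number 13) when a library was left out. DESeq2 and limma called RT1-Da and RT1-Db1 as well, and total-count scaling called none. Leaving out a library ended the call of Cd74 in 7 of 10 fits (LS numbers 1, 3 and 4, HS21 numbers 11, 12, 14 and 15; log2 ratio 1.25 to 1.52 over all 10) and that of Ciita in 6 of 10 (the same without number 12; 1.47 to 1.80). Between HS14 and HS21, edgeR, DESeq2 and limma called 0 members, and edgeR called 0% of all genes. Unadjusted *P* was under 0.05 for 3 of the 8.

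Within the HS21 samples of the Cx, number 15 had the highest value for 8 of 8 members and number 13 the lowest for 7 of 8, RT1-DMa being the exception (9.12 CPM, the second highest). In the OM, number 13 was lowest for 6 of 8, and the highest values were divided between number 11 (3 of 8), number 15 (3 of 8) and number 14 (2 of 8). The summed level of the general leukocyte markers also ran from 133 CPM in number 13 to 437 CPM in number 15 in Cx HS21.

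Between the tissues, Cd74 and Ciita were lower in the OM than in the Cx on LS. The log2 ratio was -0.70 ± 0.19 for Cd74 (adjusted *P* = 0.0125), which was lower in the OM for 5 of 5 numbers, and -0.52 ± 0.14 for Ciita (adjusted *P* = 0.0148), lower for 4 of 5. That was 2 of 8 members against 19.5% of all genes called lower. With total-count scaling, which moved the median of all genes from 0.03 to 0.27, neither passed (-0.43 and -0.26). RT1-Da at -0.24 ± 0.22 and RT1-Db1 at -0.11 ± 0.40 did not differ beyond their error on LS, and both turned positive with total-count scaling (0.03 and 0.18).

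At HS14, edgeR, DESeq2 and limma called 0 members between the tissues, and 13% of all genes were lower in the OM by edgeR. None of the 8 had an unadjusted *P* under 0.05 (0 of 8). At HS21, 1 of 8 was lower in the OM, RT1-DMa (-3.22 ± 1.07, adjusted *P* = 0.0408), where 14.5% of all genes were. With equal numbers as a replicate block it did not pass (-2.31, adjusted *P* = 0.0876), nor with limma (-1.10, adjusted *P* = 0.195). It rested on Cx numbers 13 and 15: the call was lost in 7 of 10 fits that left out a library, those 2 and all 5 of OM HS21 among them, with log2 ratios of -3.57 to -2.13. Cd74 differed by -0.33 ± 0.27 (adjusted *P* = 0.401) and Ciita by -0.37 ± 0.39 (adjusted *P* = 0.540) at HS21.

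The response to salt was not shown to differ between the tissues for any member tested. edgeR called 0 of 8 interactions at each time, with 0 of 8 at an unadjusted *P* under 0.05 and 0 by DESeq2 and limma, where 0% of all genes passed at HS14 and 0.665% at HS21. Over all genes the HS21 interactions, 68 higher and 33 lower, came to 729 and 546 without OM LS number 2, the library that stood apart, and 0 members were among them. The OM response minus the Cx response at HS21 was 0.02 ± 0.42 for RT1-Da, -0.24 ± 0.54 for RT1-Db1, 0.33 ± 0.35 for Cd74 and 0.12 ± 0.45 for Ciita on the log2 scale.

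Cd74 was also set against the leukocyte antigen Ptprc (CD45) and against B2m, the class I light chain, within each library. The log2 ratio of Cd74 to Ptprc averaged 5.20 ± 0.21 (SD, n = 5) in Cx LS and 4.42 ± 0.15 in Cx HS21, with no overlap. That of Cd74 to B2m averaged -0.20 ± 0.08 in Cx LS, 0.14 ± 0.10 in Cx HS14 and 0.17 ± 0.09 in Cx HS21, both high-salt groups lying wholly above LS. Each of these differences had an exact two-sided permutation *P* of 0.00794, the smallest that 5 against 5 can give, and adjusted over 28 ratio tests 0.0741, which did not pass. The ratio of Ciita to Cd74 rose by 0.34 in the Cx at HS21 (exact permutation *P* = 0.0714, adjusted 0.154).

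**Figure D5:**
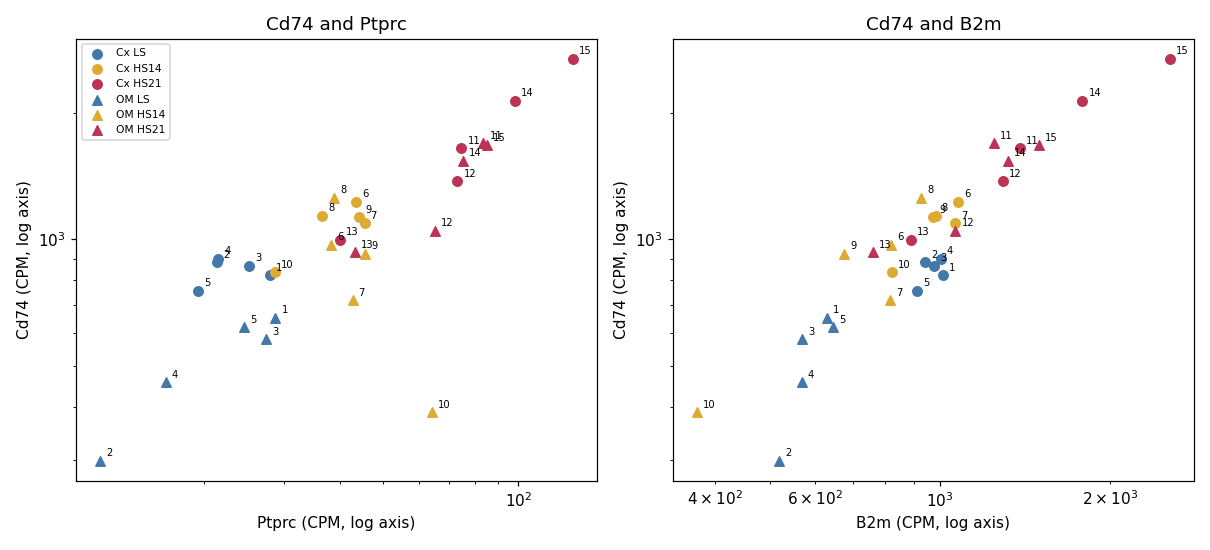
CPM of Cd74 (vertical) against Ptprc (left) and B2m (right) on log axes in 30 libraries, circles for Cx and triangles for OM, coloured by diet and marked with the sample number. Levels rise together in both panels, and the Cx HS21 libraries lie at 998 to 2679.8 CPM of Cd74 against 755 to 899 CPM in Cx LS.

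Among the class II relatives, RT1-DOb and RT1-DOa, the chains of RT1-DO that restrains RT1-DM, rose in the Cx at HS21. RT1-DOb had 15.4, 15, 9.63, 12 and 8.79 CPM on LS and 26.1, 17.8, 19.4, 27.9 and 36.5 CPM at HS21, without overlap (log2 ratio 1.07 ± 0.22, adjusted *P* = 0.00245). RT1-DOa averaged 1.41 CPM on LS and 7.83 at HS21 (2.45 ± 0.55, adjusted *P* = 0.00447). RT1-DOb was lower in the OM than in the Cx on LS (-1.57 ± 0.30, adjusted *P* = 0.00195), and neither gene passed between diets in the OM. RT1-Ha was too low to test between diets and RT1-Db2 in all of these comparisons but HS14 with LS in the OM, where it did not pass (-1.17 ± 0.92, adjusted *P* = 0.994), with at most 4.26 CPM of RT1-Db2 and 0.364 CPM of RT1-Ha in any library.

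Of the 7 factors that bind class II promoters (Rfx5, Rfxap, Rfxank, Creb1, Nfya, Nfyb and Nfyc), 1 was called higher in the Cx at HS21, Nfyc, a subunit of NF-Y (0.19 ± 0.06, adjusted *P* = 0.0201), and 0 lower, against 18.9% of all genes called higher, and edgeR called 0 in the OM. Rfx5 stood at 0.17 ± 0.09 and Rfxank at 0.18 ± 0.09 in the Cx without passing. The median of the 7 was 0.17.

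Of the interferon gamma axis, a known inducer of Ciita, 5 of 7 tested genes were higher in the Cx at HS21, against 18.9% of all genes. Among them were the transcription factor Irf1 (1.81 ± 0.30, adjusted *P* = 0.000744), the feedback inhibitor Socs1 (2.27 ± 0.53), and the receptor chains Ifngr1 (0.70 ± 0.17) and Ifngr2 (0.23 ± 0.07). The median of the 7 was 0.70. Ifng itself was too low to test, with 0.381, 0.531, 0.0691, 0.785 and 1.16 CPM in Cx HS21 and at most 0.145 CPM in the other Cx libraries. In the OM 0 of 7 passed, Irf1 with 1.58 ± 0.31 at an adjusted *P* of 0.0553.

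The endosomal genes that cut antigen and the invariant chain moved both ways in the Cx at HS21, with 2 of 8 higher against 18.9% of all genes and 4 of 8 lower against 20.5%. Ctss, the cathepsin known for the last cut of Cd74 in antigen presenting cells, rose by 1.69 ± 0.34 (adjusted *P* = 0.00232) and Ctsd by 0.28 ± 0.05. Ctsl (-1.05 ± 0.08), Ctsb (-0.50 ± 0.07) and Lgmn (-0.54 ± 0.09), lysosomal proteases also abundant in tubules, fell. In the OM edgeR called 0 of 8.

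Of the genes of class I presentation, which shows peptides from the cytosol to CD8+ T cells, 14 of 16 tested were higher in the Cx at HS21, against 18.9% of all genes, and 4 of 16 in the OM, against 0.639%, with median log2 ratios of 1.33 and 1.09. Psmb8 and Psmb9, subunits of the immunoproteasome, rose by 2.55 ± 0.37 and 2.18 ± 0.36 in the Cx and by 2.01 ± 0.27 and 1.73 ± 0.29 in the OM. RT1-CE5, a class I heavy chain, rose by 2.15 ± 0.33 and the proteasome activator Psme2 by 0.78 ± 0.14 in the Cx. Tap2, a chain of the peptide transporter that is encoded in the MHC, did not pass (0.17 ± 0.43, adjusted *P* = 0.780). It had 5.73, 6.92, 9.40, 7.37 and 5.66 CPM in Cx numbers 1, 6, 11, 12 and 13 and 11.5 to 30.2 CPM in the other 10, the same division as RT1-Ba. In the OM those 5 numbers had 3.94 to 13 CPM and the others 3.04 to 19.97, which overlapped.

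The T cell partners were higher in the Cx at HS21 for 6 of 7 tested genes, against 18.9% of all genes. Cd4, the coreceptor that binds class II, rose by 1.39 ± 0.25 (adjusted *P* = 0.00112), and the costimulators Cd86 by 1.24 ± 0.19 and Cd40 by 1.05 ± 0.23. Cd28 was the exception and fell by 1.13 on the log2 scale. In the OM edgeR called 0 of 7.

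Many markers of cells that carry class II were higher in the Cx at HS21, as were RT1-Da, RT1-Db1, Cd74 and Ciita but not the other members. In the Cx at HS21, where 18.9% of all genes were higher, 9 of 9 tested macrophage markers were higher (median log2 ratio 1.57, Csf1r 1.17 ± 0.14, C1qa 1.84 ± 0.34), 6 of 7 dendritic cell markers (median 1.18, Itgax 1.15 ± 0.22, Irf8 1.13 ± 0.21) and 4 of 4 general leukocyte markers (median 1.89, Ptprc 1.86 ± 0.26). All 5 tested T cell markers rose too (5 of 5, median 3.26, Cd3e 3.95 ± 0.59). Summed over the list, macrophage markers ran from 132 to 176 CPM in Cx LS and from 234 to 785 CPM in Cx HS21. Dendritic cell markers ran from 57.8 to 75.1 and from 87.8 to 201 CPM, and general leukocyte markers from 63.0 to 89.6 and from 133 to 437 CPM. T cell markers ran from 3.66 to 6.76 CPM in Cx LS and from 11.9 to 65.9 CPM in Cx HS21. In the OM at HS21, 0 of 9 macrophage markers, 1 of 6 dendritic cell markers, 3 of 4 general leukocyte markers and 1 of 6 T cell markers passed, against 0.639% of all genes called higher. Their median log2 ratios there were 1.32, 1.18, 1.49 and 2.01, and 3, 2, 4 and 4 of them did not overlap with LS. In these bulk samples more cells of a type and more RNA per cell cannot be told apart, and the part of these cells in the rise of the class II genes was not tested.

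B cells also carry class II, and their markers were low. Of 8 markers only Cd22 could be tested in the Cx at HS21 (1.49 ± 0.27, adjusted *P* = 0.00124). The defining markers Cd79a, Ms4a1 and Pax5 had at most 0.693, 0.436 and 0.262 CPM in any Cx library. The list summed to 2.38 to 4.55 CPM in Cx LS and 4.76 to 9.11 CPM in Cx HS21. Of the endothelial markers 2 of 5 were higher there, against 18.9% of all genes, Emcn by 0.29 ± 0.05 and Tek by 0.40 ± 0.11. The nephron segment markers moved both ways (3 of 5 higher, 2 of 5 lower, against 18.9% and 20.5% of all genes), with Slc12a3 at 0.83 ± 0.15 and Slc5a2 at -0.68 ± 0.07.

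The genes whose log2 CPM went most closely with the mean of the 8 members over the 30 libraries were sought among 13526 protein-coding genes that averaged 1 CPM or more. Tap2 led with both of its rows (Pearson r = 0.80 and 0.77), followed by Hpse (0.76), RT1-DOa (0.75) and Hlx (0.75). The mean of the 8 weighs each gene alike on the log scale, so genes that vary more between libraries have a larger share in it.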

How the data were processed

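Poly(A) RNA libraries without strand information were sequenced from 30 kidney samples. The authors aligned the reads to Ensembl Rnor_6.0 with HISAT2 2.0.5 and counted them per gene with featureCounts 1.5.0-p3, and StringTie 1.3.3b is also named in the submitters' processing notes. They deposited raw counts, as whole numbers. The deposited FPKM values, scaled by the authors for length and library size, served only in an alternative fit. The authors' group means, log2 fold changes and p-values of 7 comparisons were not used.

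Genes were filtered by filterByExpr, scaled by TMM and tested with the quasi-likelihood F-test of edgeR 4.0.16 in R 4.3.3, on the libraries compared, and *P* was adjusted over all genes tested (threshold 0.05). SEs are the log2 ratio over the root of F. CPM were scaled over all 30 libraries, with a prior count of 2 on the log2 scale. Alternatives were DESeq2 1.42.0, limma 3.58.1 on log2(FPKM + 1), other scalings, no filter, all libraries of a tissue, a replicate block and leaving out each library. The fits were tested on simulated counts drawn independently for each library. These held no rat shared between the tissues and no split like that of RT1-Ba, so they do not test the fits for either. All 8 members were described in every comparison, up to 4 genes per list by smallest adjusted *P* in the Cx at HS21, all class II relatives, and the 5 genes most alike. Some genes were named outside this rule, among them Ifng, B cell markers too low to test, and more than 4 endosomal genes. Members and lists were chosen with earlier results of these data known. Tap2 and Rfxap have 2 rows each, of which the one with more counts was used. Within groups, all 60 pairs of libraries differed beyond counting noise (chi-square per gene of at least 7.82). Totals of 5408126 to 21842843 counts per library limit the precision of RT1-DMa and RT1-DMb most, and errors given for groups include counting error. Single values of 2 listed genes are not reported here.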

Additional observations from a re-analysis of the deposited data

Results flagged for a closer look

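A library was singled out where its gap to the nearest of the other 4 in its group exceeded 0.71 of the range of the group (Dixon's test at 95%). Over 48 groups of 5 (8 genes, 6 groups) this gave 10. The rate of about 1 in 20 holds only for independent, normally distributed values. The CPM were not logged, and genes and tissues were not independent. No excess over chance can therefore be read from the 10. In Cx LS, number 1 was far below the others for RT1-Ba (0.917 CPM, the next 45.5) and RT1-Bb (9.25, the next 117), and far above them for RT1-Db1 (44.2, the next 23.6). RT1-DMa stood out in Cx LS number 4 (6.17 CPM, the next 1.80) and Cx HS14 number 8 (2.49, the next 0.842). RT1-DMb stood out in Cx LS number 5 (10.9, the next 2.23), OM LS number 5 (3.25, the next 0.572), OM HS14 number 7 (15.3, the next 4.47) and OM HS21 number 14 (4.85, the next 0.868). Ciita was low in OM HS14 number 7 (10.4 CPM, the next 19.4).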

How the results depend on the processing

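Of the members called in the Cx at HS14 (2), limma on log2(FPKM + 1) kept a count of 1, fitting all 15 libraries gave 0, and leaving out a library gave 0 to 4. Between HS14 and HS21 in the Cx (2), DESeq2 and the fit of all 15 libraries gave 4, limma 1 and leaving out a library 0 to 4. In the OM at HS21 (2), DESeq2 and limma gave 4, total-count scaling 0 and leaving out a library 0 to 3. Between the tissues on LS (2), total-count scaling gave 0 and leaving out a library 2 to 3, and at HS21 (1) limma gave 0 and leaving out a library 0 to 1. The other counts of members were within 1.5 times of the reported ones. Causes were not tested.

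Equal numbers in the 2 tissues were taken as a block in a further fit. Over 15 number pairs the correlation of deviations from the group means ran from -0.07 to 0.44 (median 0.11), with 10 above 0.1, and 13 of 15 libraries correlated best with their own number, a hint from the data and not from the labels. With the replicate block, the members called between the tissues numbered 2 on LS, 0 at HS14 and 0 at HS21, where RT1-DMa no longer passed (-2.31, adjusted *P* = 0.0876), and 0 interactions passed. The block turned the interaction of RT1-Db1 at HS14 to -0.064 and that of RT1-DMb at HS21 to -0.037.

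Over all genes, DESeq2 called 500 higher and 414 lower in the Cx at HS14 where edgeR called 162 and 168, 1465 and 1831 between HS14 and HS21 in the Cx (935 and 1395), 90 and 20 in the OM at HS14 (1 and 0), 555 and 166 in the OM at HS21 (93 and 19), 20 and 11 between HS14 and HS21 in the OM (0 and 0) and 337 and 201 interactions at HS21 (68 and 33). limma gave 137 and 46 interactions there and the unfiltered fit 48 and 10. Total-count scaling gave 35 and 9 in the OM at HS21, 2084 and 644 between HS14 and HS21 in the Cx, and 5546 and 1842, 3587 and 1403, and 3660 and 1693 between the tissues on LS, at HS14 and at HS21, where TMM gave 3051 and 2794, 2275 and 1872, and 2536 and 2119. Fitting all libraries of a tissue gave 83 and 143 in the Cx at HS14, 1500 and 1905 between the high-salt times in the Cx, and 179 and 20 in the OM at HS21.

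None of the 4 members called in the Cx at HS21 reversed. limma turned RT1-Bb in the Cx at HS21 (-0.12), between HS14 and HS21 in the Cx (-0.25) and in the OM (-0.21), RT1-Ba in the OM at HS21 (-0.56), and the interactions of RT1-Db1 at HS14 (-0.067) and RT1-DMb at HS21 (-0.012). Total-count scaling turned RT1-Ba between HS14 and HS21 in the Cx (0.093), RT1-Da and RT1-Db1 between the tissues on LS (0.032 and 0.18) and at HS14 (0.11 and 0.16), and the interactions of RT1-Db1 at HS14 (-0.015) and of RT1-Da (-0.11) and Ciita (-0.0096) at HS21.

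Leaving out a library turned the sign of values that had not passed, with these log2 ratios. RT1-Ba ran from -0.47 to 0.15 (Cx HS14 to LS), -0.94 to 0.12 (Cx HS21 to LS), -0.80 to 0.26 (Cx HS21 to HS14), -0.50 to 0.58 (OM HS14 to LS), -0.72 to 0.34 (OM HS21 to LS), -0.99 to 0.55 (OM HS21 to HS14), -1.02 to 0.033 (OM to Cx at HS14), -1.17 to 0.36 (OM to Cx at HS21), and -0.33 to 0.72 and -0.52 to 1.01 (interactions at HS14 and HS21). RT1-Bb ran from -0.27 to 0.29 (Cx HS14 to LS), -0.32 to 0.54 (Cx HS21 to LS), -0.36 to 0.52 (Cx HS21 to HS14), -0.092 to 0.77 (OM HS14 to LS), -0.46 to 0.66 (OM HS21 to HS14), -0.999 to 0.10 (OM to Cx at HS21), and -0.11 to 0.76 and -0.20 to 0.90 (interactions). RT1-Da ran from -0.25 to 0.065 and -0.37 to 0.025 (OM to Cx at HS14 and HS21), and from -0.068 to 0.30 and -0.14 to 0.23 (interactions). RT1-Db1 ran from -0.52 to 0.15 and -0.30 to 0.23 (OM to Cx on LS and at HS14), and from -0.23 to 0.48 and -0.48 to 0.18 (interactions). RT1-DMa ran from -1.51 to 0.21 (Cx HS14 to LS), -0.48 to 0.41 (OM HS21 to HS14) and -0.12 to 1.60 (interaction at HS14). RT1-DMb ran from -0.0093 to 1.95 (Cx HS14 to LS), -0.75 to 1.47 (Cx HS21 to LS), -1.497 to 0.27 (Cx HS21 to HS14), -1.98 to 0.33 (OM to Cx at HS14), and -0.16 to 2.66 and -1.31 to 1.44 (interactions). Ciita ran from -0.063 to 0.46 (interaction at HS21). Counts under about 10 per library, as in many libraries for RT1-DMa and RT1-DMb, do not show a difference of the sizes seen for RT1-Da.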
